A study of Homo sapiens with 12 samples.

Results

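The *RB1* gene, its relatives *RBL1* and *RBL2*, the MuvB core genes *LIN9*, *LIN37*, *LIN52*, *LIN54* and *RBBP4*, and the activators *MYBL2* and *FOXM1* were examined by RNA sequencing in ZR-75-1, a human breast cancer line that expresses the oestrogen receptor. These 10 genes were taken by symbol from 60612 gene rows, each symbol matched 1 row, and all 10 had counts in every library and passed the filter on low counts in each of the 5 comparisons. Of the 60612 rows, 32270 had a count in any library. The cells were isogenic clones made with CRISPR. Control clones (sgControl) had received a guide RNA without a target and *RB1*-knockout clones a guide RNA against *RB1*. Each genotype was kept for 5 days in DMSO, the solvent, or in 500 nM abemaciclib, a drug that blocks CDK4 and CDK6, with 3 replicates in each of the 4 groups. All 4 groups therefore share the line and exposure to a guide RNA, and differ in genotype and drug. The labels do not say how many clones stand behind a group or whether replicates are separate clones, so a difference between genotypes cannot be told apart from a difference between clones. The question put to the data was whether *RBL1* or *RBL2* transcripts rise where *RB1* is lost.

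*RB1* encodes Rb, and *RBL1* and *RBL2* encode p107 and p130. These pocket proteins bind E2F transcription factors and hold down genes for entry into the cell cycle until cyclin-dependent kinases phosphorylate them. p107 or p130, with E2F4 or E2F5, a DP partner and the MuvB core, form the DREAM complex, which represses cell cycle genes in resting cells. In cycling cells the same MuvB core leaves the pocket proteins, joins B-MYB (*MYBL2*) and later FOXM1, and activates genes for mitosis. MuvB components and pocket proteins are controlled to a large degree by phosphorylation, which transcript counts do not measure.

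Sequence before the transcription start is shown for *RBL1*, *MYBL2* and *LIN52*, whose transcripts fell with abemaciclib in control cells, and for *RBL2*, whose transcript rose. Each run holds the 250 bases before the RefSeq start on the strand of the gene, in build GRCh38.p14. *RBL1* is read from the minus strand of chr20:37095998-37096247, *MYBL2* from the plus strand of chr20:43666864-43667113, *LIN52* from the plus strand of chr14:74084706-74084955 and *RBL2* from the plus strand of chr16:53434221-53434470. Capitals mark matches, on either strand, to 3 sets of words: the E2F words TTTCCCGC, TTTGGCGC, TTTCGCGC and TTTGCCGC, the word GGCGGGA that occurs within many E2F sites, and the words TTTGAA and TTCGAA of the cell cycle gene homology region (CHR) to which LIN54 binds.
RBL1: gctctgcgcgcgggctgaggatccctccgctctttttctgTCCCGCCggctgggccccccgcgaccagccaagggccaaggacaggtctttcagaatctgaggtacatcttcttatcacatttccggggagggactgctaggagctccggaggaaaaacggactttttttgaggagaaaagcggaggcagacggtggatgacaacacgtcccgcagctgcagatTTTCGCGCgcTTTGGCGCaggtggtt
MYBL2: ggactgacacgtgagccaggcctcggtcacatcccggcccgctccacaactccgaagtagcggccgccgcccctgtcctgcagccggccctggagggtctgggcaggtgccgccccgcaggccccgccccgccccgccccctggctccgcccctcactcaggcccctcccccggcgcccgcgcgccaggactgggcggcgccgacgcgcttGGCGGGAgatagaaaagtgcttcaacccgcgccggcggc
LIN52: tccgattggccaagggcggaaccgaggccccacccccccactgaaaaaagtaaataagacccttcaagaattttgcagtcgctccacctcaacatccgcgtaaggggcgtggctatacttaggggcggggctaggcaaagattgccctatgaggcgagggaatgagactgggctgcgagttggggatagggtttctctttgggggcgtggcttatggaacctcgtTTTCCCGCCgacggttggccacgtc
RBL2: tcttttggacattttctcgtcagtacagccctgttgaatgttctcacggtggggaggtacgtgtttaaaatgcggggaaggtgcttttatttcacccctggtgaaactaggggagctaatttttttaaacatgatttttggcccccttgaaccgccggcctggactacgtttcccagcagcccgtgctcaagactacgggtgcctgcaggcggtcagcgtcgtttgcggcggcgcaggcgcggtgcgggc

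The *RBL1* run holds 2 E2F words, TTTCGCGC from base -26 to -19 and TTTGGCGC from -16 to -9, where base 1 is the start, and TCCCGCC, the other strand of GGCGGGA, from -210 to -204. *LIN52* holds TTTCCCGC from -25 to -18, which overlaps TCCCGCC from -23 to -17, and *MYBL2* holds GGCGGGA from -39 to -33. None of the words occurs in the *RBL2* run, and TTTGAA lies after its start, from base 25 to 30. *RBL2* had 2 RefSeq windows. The start used lies 494 bases from the 5′ end of the gene in GENCODE, so the run lies inside the annotated gene. Among 35116 RefSeq windows of 300 bases around a start, 3.31% held an E2F word, 15.4% held GGCGGGA and 16.4% held a CHR word. A match is a description of letters and not a binding site shown here. Of the 10 genes, 9 had a window in the table and *FOXM1* had none. Among those not shown, *LIN9*, which fell in control cells, and *LIN37*, which rose, held none of the words in their windows. *RBBP4*, which fell, held only GGCGGGA. *LIN54*, whose response was not called, held GGCGGGA and TTTGAA, in a window whose start lies 2092 bases from the gene's 5′ end in GENCODE. Whether the words go with the response was not tested. The start of the *RB1* window lies 172706 bases from the 5′ end of the gene in GENCODE, so that window is not shown.

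The 12 libraries held 39907318 to 81636393 counts. Replicates were distinct libraries, with a chi-square per gene between pairs of one group that ran from 3.32 to 95.3, the latter for replicates 1 and 3 of sgControl in DMSO. All 8 luminal epithelial markers had counts in every library, with a summed normalized count of 699607 to 1051470. Of 9 markers of leukocytes, endothelium, fibroblasts and basal epithelium, *CD3E* had no count in any library and 7 had between 0 and 14 counts. The exception was the collagen gene *COL1A1*, with 1375 to 3797 counts, which made nearly all of the summed level of these markers: 2112 to 2403 normalized counts in sgControl in DMSO, 2794 to 3043 in sgControl in abemaciclib, 1894 to 2061 in the knockout in DMSO and 2576 to 2677.5 in the knockout in abemaciclib. *COL1A1* rose with the drug in both genotypes, and its part in the results was not tested.

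Abemaciclib lowered 7 of the 10 genes in control cells, and the counts in knockout cells lay near those of all genes. Normalized counts are counts divided by the DESeq2 size factor, and a gene is called where the DESeq2 adjusted p over all genes tested is under 0.05. In sgControl, 2 of the 10 were higher and 7 were lower in abemaciclib than in DMSO, against 24.1% higher and 23.9% lower among 23512 genes tested, and their median log2 fold change was -0.62 against 0.01 over all genes tested. The count of 2 higher is near that background, so nothing is read from it. In *RB1*-knockout cells 1 was higher and 3 were lower, where 15.0% and 15.1% of 18506 genes were called, and the median was -0.05 against 0.02, counts close enough to that background that nothing is read from them. The difference of the responses, knockout minus control, was above 0 and called for 7 and below 0 and called for 2, with 21.0% and 20.2% of 21008 genes called. The 7 include *RB1* itself, and nothing is read from the 2, which are near the background. Between the genotypes in DMSO no member was higher and 3 were lower in the knockout, with 16.2% and 15.2% of 19757 genes called, and the count of 3, which includes *RB1* itself, is likewise near the background. In abemaciclib 5 were higher and 4 lower in the knockout, with 27.5% and 26.4% of 22260 genes called, and the 4 include *RB1* itself. These comparisons share groups and are not independent of each other. In a bulk culture, fewer cells with a transcript and less of it per cell cannot be told apart.

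**Figure D1:**
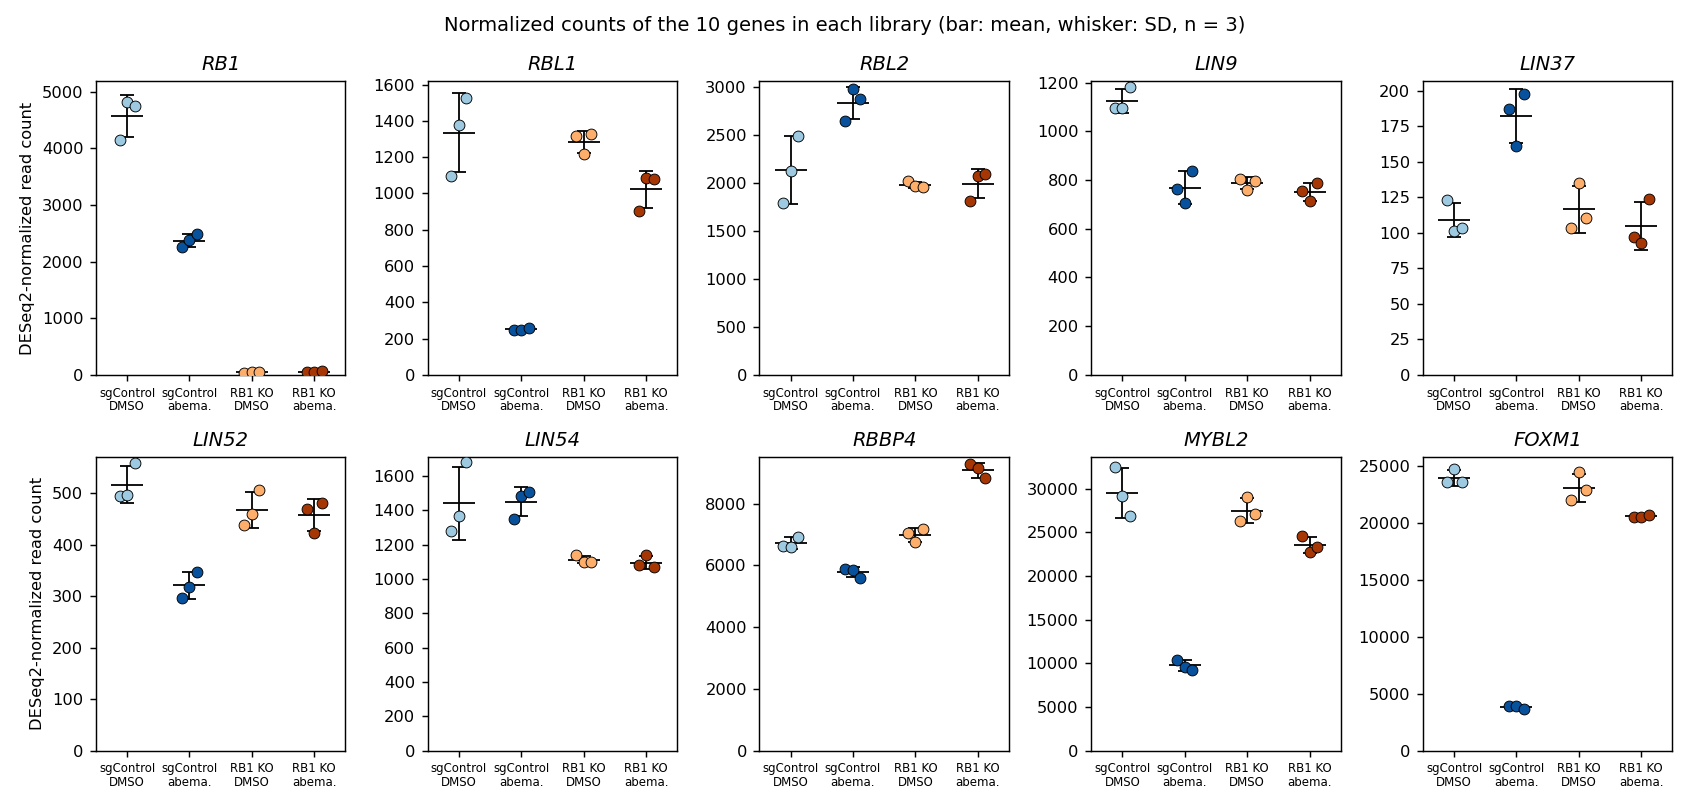
DESeq2-normalized read counts (vertical axes, linear, from 0) of the 10 genes in each of 12 libraries, by group (horizontal axes, where abema. stands for abemaciclib and KO for knockout). Points are libraries, bars are means and whiskers are SD over 3 replicates; *RBL1*, *MYBL2* and *FOXM1* lie far lower in sgControl with abemaciclib than in the other 3 groups.

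*RB1* (chromosome 13, positions 48303744 to 48599436, plus strand, GRCh38) checks the labels. In sgControl cells it had normalized counts of 4154, 4825 and 4752 in DMSO and 2252, 2375 and 2489 in abemaciclib. In knockout cells the counts were 39.6, 49.6 and 51.2 in DMSO and 54.4, 44.2 and 63.6 in abemaciclib. Every knockout library lay far under every control library, and no library went against its label. The knockout differed from the control by a log2 fold change of -6.60 ± 0.16 (SE) in DMSO and -5.45 ± 0.14 in abemaciclib, with adjusted p too small to be represented. In control cells *RB1* itself fell by 0.95 ± 0.08 on the log2 scale with abemaciclib (adjusted p = 3.65e-29), and the 3 treated libraries lay under the 3 untreated ones. In the knockout the log2 fold change was 0.20 ± 0.19 (adjusted p = 0.492), on 29 to 63 raw counts per library. The difference between the responses was 1.15 ± 0.21 (adjusted p = 3.29e-07), which rests on those few counts. No exon of another gene overlaps an exon of *RB1* in GENCODE.

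*RBL1* (chromosome 20, 36996349 to 37095997, minus strand), the gene of p107, lost most of its transcript in treated control cells. Its normalized counts in sgControl were 1098, 1380.2 and 1529 in DMSO and 250.0, 248 and 259.9 in abemaciclib. In knockout cells they were 1316, 1216 and 1327 in DMSO and 903, 1084 and 1079 in abemaciclib. The 3 treated control libraries stood apart below the other 9, and within the knockout the treated libraries were lower without overlap. *RBL1* fell by 2.40 ± 0.12 on the log2 scale in control cells, to 0.189 of its DMSO level (adjusted p = 2.88e-84). In knockout cells it fell by 0.33 ± 0.12, to 0.795 of its DMSO level (adjusted p = 0.0174). That smaller fall was no longer called without replicate 1 or replicate 3 of the knockout in DMSO or without replicate 1 of the knockout in abemaciclib (log2 fold changes of -0.31, -0.31 and -0.25, adjusted p of 0.0690, 0.0748 and 0.120), or with total counts as size factors (-0.33, adjusted p = 0.0697). The difference between the responses was 2.07 ± 0.17 (adjusted p = 2.05e-33).

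Loss of *RB1* left no detectable rise of *RBL1* in DMSO. Knockout against control gave a log2 fold change of -0.06 ± 0.11 with a 95% interval of -0.28 to 0.17 (adjusted p = 0.774), and the libraries overlapped. The control libraries spread more than the knockout libraries, with an SD of 219 around 1336 against 60.8 around 1286 normalized counts. Without replicate 3 of sgControl in DMSO the value was 0.05 (adjusted p = 0.787) and without replicate 1 it was -0.18 (adjusted p = 0.0976). In abemaciclib *RBL1* was 4.05-fold higher in the knockout than in the control, a log2 fold change of 2.02 ± 0.12 (adjusted p = 1.62e-58). The *RBL1* level of the treated knockout still lay at or below that of the untreated groups: its highest library, 1084, was under the lowest untreated library, 1098.

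*RBL2* (chromosome 16, 53433977 to 53491648, plus strand), the gene of p130, went the other way in control cells. Its normalized counts in sgControl were 1790.1, 2130.3 and 2493 in DMSO and 2649, 2978 and 2879 in abemaciclib. In knockout cells they were 2019, 1966 and 1955 in DMSO and 1816, 2073 and 2091 in abemaciclib. The 3 treated control libraries were the highest of the 12, and the knockout libraries of both treatments overlapped. *RBL2* rose by 0.41 ± 0.10 on the log2 scale in control cells, or 1.32-fold (adjusted p = 2.60e-04), and the log2 fold change in the knockout was 0.01 ± 0.10 with a 95% interval of -0.20 to 0.22 (adjusted p = 0.961). With total counts as size factors, which lower the log2 fold change of the median gene in control cells by -0.13, the response was 0.27 and was not called (adjusted p = 0.0807). The difference between the responses was -0.40 ± 0.15 (adjusted p = 0.0195). It was no longer called without replicate 2 of sgControl in abemaciclib (-0.36, adjusted p = 0.0584), without replicate 1 of the knockout in abemaciclib (-0.33, adjusted p = 0.0670) or with total counts (-0.25, adjusted p = 0.292).

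*RBL2* was not higher where *RB1* was lost. In DMSO the log2 fold change was -0.11 ± 0.10 with a 95% interval of -0.32 to 0.09 (adjusted p = 0.467), and the knockout libraries lay within the range of the control libraries. This value depended on the control libraries: without replicate 1 of sgControl in DMSO it was -0.23 and called lower (adjusted p = 0.0148), and without replicate 3 it was 0.01 (adjusted p = 0.946). In abemaciclib *RBL2* was lower in the knockout by -0.51 ± 0.10 on the log2 scale, 0.703 of the control level (adjusted p = 3.25e-06), without overlap. In GENCODE 609 exon bases of *RBL2* are shared with *AKTIP* and 721 with the unclassified gene ENSG00000279344, both on the opposite strand, and 213 exon bases of *RBL1* with an antisense RNA; whether the authors counted by strand is not stated, so reads of these partners cannot be told apart here.

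Levels of the 3 pocket protein genes were then set side by side as normalized counts per kilobase of annotated exon, a description with no test. In sgControl in DMSO *RB1* led with 711 ± 57.2 (SD, n = 3), above *RBL2* at 264 ± 43.3 and *RBL1* at 224 ± 36.7, and the libraries of the last pair overlapped. *RB1* gave 59.5% ± 2.47 of the sum of the 3 genes, *RBL2* 21.9% ± 1.47 and *RBL1* 18.6% ± 1.08. After abemaciclib in sgControl the levels were 369 ± 18.4 for *RB1*, 350 ± 20.8 for *RBL2* and 42.4 ± 1.07 for *RBL1*, so that the first pair overlapped and *RBL1* gave 5.58% ± 0.246 of the sum. The ratio of *RBL2* to *RBL1* was 1.18 ± 0.037 in DMSO and 8.25 ± 0.529 in abemaciclib.

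In knockout cells the sum of the 3 genes was 467 ± 11.5 per kilobase in DMSO, against 1199 ± 132 in control cells. *RBL1* and *RBL2* together had 460.1 ± 12.1 in the knockout and 488 ± 79.7 in the control, with ranges of 447 to 469.9 and 405 to 564. The relatives did not lie above the control, and the sum of the 3 genes was lower by about the amount of *RB1*. In abemaciclib the sum of *RBL1* and *RBL2* was 417 ± 36.3 in the knockout and 392 ± 20.9 in the control, with ranges of 376 to 439 and 369 to 409 that overlapped. The make-up differed: *RBL1* gave 40.3% ± 0.750 of the sum of the 3 genes in the treated knockout and *RBL2* 57.8% ± 0.501. The ratio of *RBL2* to *RBL1* was 1.13 ± 0.052 in the knockout in DMSO and 1.44 ± 0.039 in abemaciclib. With the longest annotated transcript in place of all exons, the ratio in treated control cells was 10.1 and the order of the groups in this ratio was the same. Of 16 sums recomputed with that length or with total counts as size factors, 10 moved by their SD or more. With the longest transcript *RBL1* and *RBL2* together had 493 ± 26.8 in treated control cells and 495 ± 42.5 in the treated knockout. In DMSO these sums were 573 ± 93.6 in the control and 539 ± 13.3 in the knockout. With total counts as size factors the 2 genes together had 373 ± 31.0 in treated control cells and 429 ± 44.8 in the treated knockout. Their ranges of 337 to 396 and 378 to 456 overlapped. In DMSO, total counts gave 511 ± 112 in the control and 472 ± 21.8 in the knockout.

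**Figure D2:**
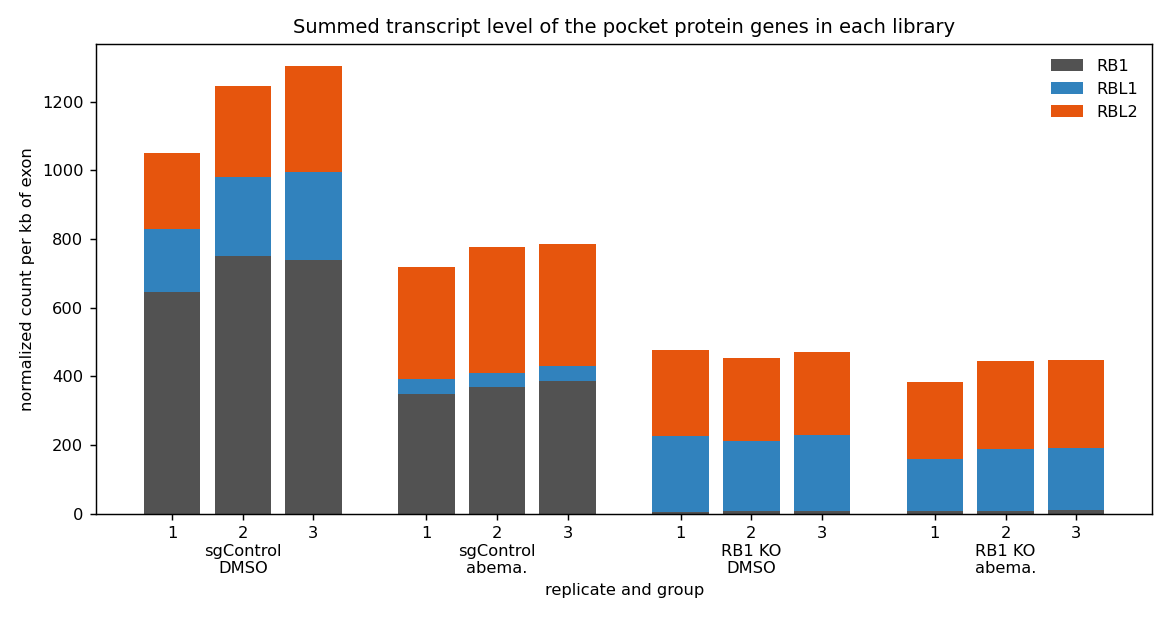
Normalized counts per kilobase of exon (vertical axis, linear, from 0) for *RB1*, *RBL1* and *RBL2*, stacked for each of 12 libraries (horizontal axis, replicates 1 to 3 of each group; abema. is abemaciclib, KO is knockout). The *RB1* share is nearly absent in the knockout, the *RBL1* share is thin in sgControl with abemaciclib, and the stacked *RBL1* and *RBL2* levels overlap between genotypes within each treatment.

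The MuvB core is the part of the complex present both with pocket proteins and with B-MYB. *LIN9* (chromosome 1, 226231149 to 226309869, minus strand), a scaffold of the core, had normalized counts of 1097, 1096 and 1182 in sgControl in DMSO and 764, 704 and 839 in abemaciclib. In the knockout they were 803, 760.2 and 798 in DMSO and 755, 713 and 788 in abemaciclib. Only the untreated control libraries stood apart, above the other 9. *LIN9* fell by 0.55 ± 0.08 on the log2 scale in control cells (adjusted p = 5.51e-11), and the log2 fold change in the knockout was -0.07 ± 0.09 (adjusted p = 0.631). The difference between the responses was 0.48 ± 0.12 (adjusted p = 1.50e-04). In DMSO *LIN9* was lower in the knockout by -0.52 ± 0.08 (adjusted p = 5.04e-09), the lowest of the 10 genes in that comparison after *RB1*. In abemaciclib the genotypes differed by -0.03 ± 0.08 (adjusted p = 0.780).

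*LIN52* (chromosome 14, 74084956 to 74201493, plus strand) encodes the subunit that contacts p107 and p130 once DYRK1A has phosphorylated it. Its normalized counts were 495, 496 and 558 in sgControl in DMSO and 296, 319 and 348 in abemaciclib. In the knockout they were 439, 459 and 507 in DMSO and 469, 422 and 482 in abemaciclib. The treated control libraries were the lowest of the 12 and the knockout libraries of the 2 treatments overlapped. *LIN52* fell by 0.69 ± 0.10 on the log2 scale in control cells (adjusted p = 2.22e-10) and had a log2 fold change of -0.03 ± 0.10 in the knockout (adjusted p = 0.855), a difference of 0.65 ± 0.15 (adjusted p = 4.91e-05). The genotypes differed by -0.14 ± 0.10 in DMSO (adjusted p = 0.318) and by 0.51 ± 0.11 in abemaciclib (adjusted p = 5.67e-06).

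*LIN54* (chromosome 4, 82909973 to 83012926, minus strand), the DNA-binding subunit, did not pass the test for a response in either genotype. It had normalized counts of 1278, 1363 and 1680.1 in sgControl in DMSO and 1351, 1485 and 1507 in abemaciclib. In the knockout the counts were 1137, 1099.6 and 1100.4 in DMSO and 1078, 1136 and 1071 in abemaciclib. All 6 knockout libraries lay under all 6 control libraries. The log2 fold changes with abemaciclib were 0.01 ± 0.10 in control cells (adjusted p = 0.976) and -0.02 ± 0.10 in the knockout (adjusted p = 0.904), and their difference had a 95% interval of -0.30 to 0.24. *LIN54* was lower in the knockout by -0.38 ± 0.10 in DMSO (adjusted p = 6.16e-04) and by -0.40 ± 0.10 in abemaciclib (adjusted p = 8.19e-05).

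*LIN37* (chromosome 19, 35748361 to 35754519, plus strand), a subunit needed for repression by DREAM, was the least abundant of the core genes, with 76 to 225 raw counts per library. Its normalized counts were 122.9, 101 and 103 in sgControl in DMSO and 188, 161 and 198 in abemaciclib. In the knockout they were 104, 136 and 110.3 in DMSO and 97.4, 92.7 and 124 in abemaciclib. The treated control libraries were the highest of the 12, and the other 3 groups overlapped. *LIN37* rose by 0.74 ± 0.17 on the log2 scale in control cells (adjusted p = 4.90e-05), had a log2 fold change of -0.16 ± 0.19 in the knockout (adjusted p = 0.589), and the responses differed by -0.90 ± 0.25 (adjusted p = 0.00136). In DMSO the genotypes differed by 0.10 ± 0.18 (adjusted p = 0.738) and in abemaciclib *LIN37* was lower in the knockout by -0.80 ± 0.18 (adjusted p = 2.02e-05). A protein-coding gene on the same strand, ENSG00000188223, spans all 6159 bases of *LIN37* and shares 752 exon bases with it, and an opposite-strand RNA shares 1180 exon bases. These values are uncertain for that reason.

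*RBBP4* (chromosome 1, 32651142 to 32686211, plus strand) encodes a histone-binding protein that also serves other chromatin complexes. It had normalized counts of 6618, 6610.2 and 6937 in sgControl in DMSO and 5887, 5863 and 5587 in abemaciclib. In the knockout the counts were 7056.5, 6747 and 7183.5 in DMSO and 9295, 9163 and 8822 in abemaciclib. The treated control libraries were the lowest and the treated knockout libraries the highest of the 12, without overlap. *RBBP4* fell by 0.22 ± 0.05 on the log2 scale in control cells (adjusted p = 1.46e-05) and rose by 0.38 ± 0.05 in the knockout (adjusted p = 7.64e-14), the one member called in opposite directions. The responses differed by 0.60 ± 0.07 (adjusted p = 8.77e-18). The genotypes differed by 0.06 ± 0.05 in DMSO (adjusted p = 0.404) and by 0.65 ± 0.05 in abemaciclib (adjusted p = 4.70e-42). GENCODE names 7 pseudogenes after *RBBP4* and 2160 of its exon bases overlap *SYNC* on the opposite strand, so reads of these copies and of *SYNC* may be included.

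The activators that join MuvB in cycling cells fell with abemaciclib in control cells by much more than the core. *MYBL2* (chromosome 20, 43667019 to 43716495, plus strand) had normalized counts of 32481, 29163.5 and 26859 in sgControl in DMSO and 10393, 9576 and 9268 in abemaciclib. In the knockout they were 26301, 29067 and 27083 in DMSO and 24581, 22770.0 and 23342 in abemaciclib. The treated control libraries stood apart below the other 9. *MYBL2* fell by 1.60 ± 0.08 on the log2 scale in control cells, to 0.330 of its DMSO level (adjusted p = 2.03e-98). In the knockout it fell by 0.22 ± 0.08 (adjusted p = 0.0135), a call lost without replicate 2 of the knockout in DMSO (-0.18, adjusted p = 0.109) or without replicate 2 or replicate 3 of the knockout in abemaciclib (-0.20 and -0.22, adjusted p of 0.0823 and 0.0546). The responses differed by 1.38 ± 0.11 (adjusted p = 8.17e-37). The genotypes differed by -0.10 ± 0.08 in DMSO (adjusted p = 0.330) and by 1.27 ± 0.08 in abemaciclib (adjusted p = 7.79e-63). In DMSO total counts as size factors gave -0.12, which was called lower (adjusted p = 0.0463).

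*FOXM1* (chromosome 12, 2857680 to 2877174, minus strand), the forkhead factor of late cell cycle genes, had the largest response of the 10 genes in control cells. Its normalized counts in sgControl were 23570.3, 24748 and 23548 in DMSO and 3943, 3875 and 3693 in abemaciclib. In the knockout they were 21959, 24419.5 and 22841 in DMSO and 20499.9, 20516 and 20662 in abemaciclib. The treated control libraries were far below the other 9, and within the knockout the treated libraries lay just under the untreated ones. *FOXM1* fell by 2.64 ± 0.05 on the log2 scale in control cells, to 0.160 of its DMSO level (adjusted p too small to be represented). In the knockout it fell by 0.17 ± 0.05, to 0.891 (adjusted p = 0.00499), a call lost without replicate 2 of the knockout in DMSO (-0.12, adjusted p = 0.0649). The responses differed by 2.48 ± 0.07 (adjusted p = 6.26e-255). The genotypes differed by -0.05 ± 0.05 in DMSO (adjusted p = 0.468), and in abemaciclib *FOXM1* was 5.36-fold higher in the knockout. Opposite-strand *ITFG2* shares 782 exon bases with *FOXM1*, while *MYBL2* and *LIN9* overlap no annotated gene.

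**Figure D3:**
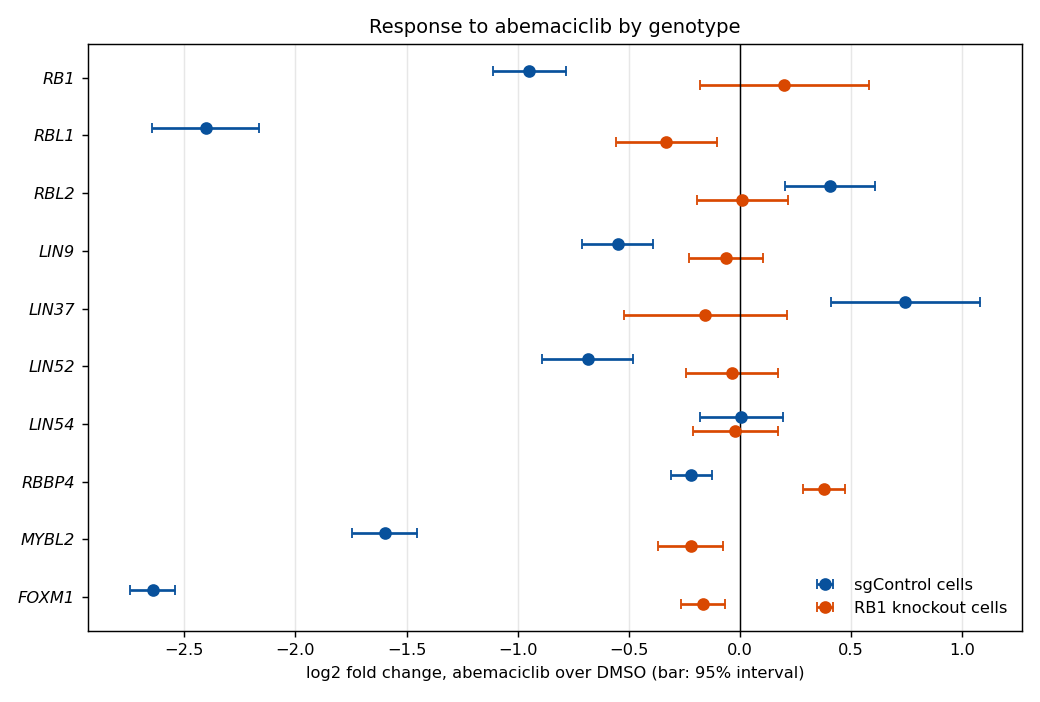
Log2 fold change in abemaciclib over DMSO (horizontal axis) for the 10 genes (vertical axis) in sgControl and in *RB1*-knockout cells, from the DESeq2 fit. Points are estimates and bars 95% intervals; *FOXM1*, *RBL1* and *MYBL2* lie between -2.64 and -1.60 in sgControl, and in the knockout all 10 lie between -0.33 and 0.38.

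Per kilobase of exon, *MYBL2* and *FOXM1* were the most abundant of the 10 genes in every group. In sgControl in DMSO the levels were 10627 ± 1018 for *MYBL2* and 4870.0 ± 139.5 for *FOXM1*, then 711 ± 57.2 for *RB1* and 709.8 ± 19.7 for *RBBP4*, which overlapped. *RBL2*, *LIN9*, *RBL1* and *LIN54* followed at 264 ± 43.3, 253 ± 11.2, 224 ± 36.7 and 213 ± 31.3, with each overlapping its neighbour. *LIN52* had 136 ± 9.51 and *LIN37* 38.7 ± 4.22, each below its neighbour without overlap. In treated control cells *FOXM1* at 780.1 ± 26.3 still lay above *RBBP4* at 610.2 ± 17.6, and *RBL1* was the lowest, with 42.4 ± 1.07 against 64.7 ± 6.76 for *LIN37*. Both orders rest on the division by length. As mean normalized counts there, *FOXM1* had 3837 and *RBBP4* 5779, and *RBL1* had 253 and *LIN37* 182.

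**Figure D4:**
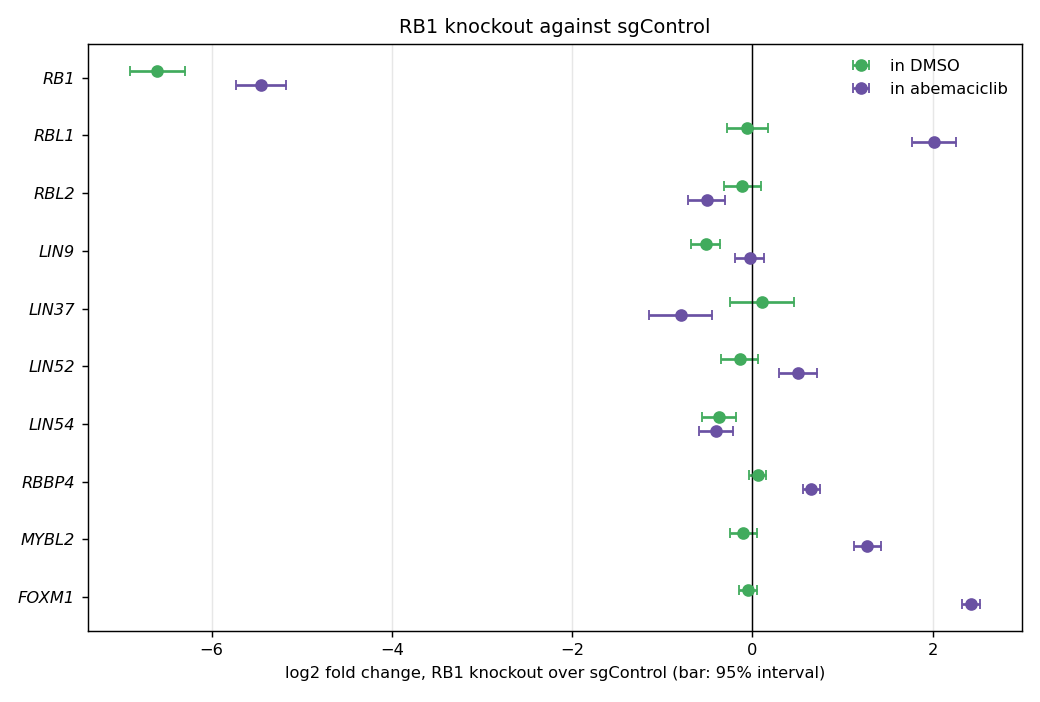
Log2 fold change in *RB1* knockout over sgControl (horizontal axis) for the 10 genes (vertical axis), in DMSO and in abemaciclib, from the DESeq2 fit. Points are estimates and bars 95% intervals; in DMSO the intervals of *RBL1* and *RBL2* include 0, and in abemaciclib *RBL1* lies at 2.02 and *RBL2* at -0.51.

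The patterns over the 4 group means were compared as the root mean square difference of log2 values, each gene centred on its own mean, as a description over 4 points. Among the members *RBL1* was nearest to *FOXM1*, at 0.148, and next to *MYBL2*, at 0.344. *RBL2* was nearest to *LIN37*, at 0.128, and to *LIN54*, at 0.148, and lay at 1.19 from *RBL1*. The distance is not scaled to the size of the changes, so genes that change little lie close to each other. In control cells *LIN54* had a drug response of 0.01 that was not called, where *RBL2* rose. Among all other genes that averaged 100 normalized counts or more, the 3 nearest to *RBL1* were *CDC20* at 0.044, *CENPM* at 0.049 and *DUSP9* at 0.060. Nearest to *RBL2* were *GALNT2* at 0.013, *SUPT7L* at 0.018 and *STAG3L4* at 0.019. *ALYREF* at 0.015, *GINS1* at 0.021 and *BRCA1* at 0.034 were nearest to *MYBL2*. For *FOXM1* they were *POLE2* at 0.060, *DTL* at 0.062 and *MDFIC* at 0.063. Of these 12 genes, *CDC20* and *GINS1* also stand in the target lists used below.

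The partners of the complex were examined in the same way. In control cells 2 of 8 DREAM partners rose and 4 fell with abemaciclib, with 24.1% of all genes tested called higher and 23.9% lower. The count of 2 that rose is near that background, so nothing is read from it. In the knockout 1 of 8 rose and none fell, with 15.0% and 15.1% of all genes called, so nothing is read from these counts. *E2F4*, which encodes the main E2F of DREAM, fell by 0.22 ± 0.06 on the log2 scale in control cells (adjusted p = 7.20e-04) and had a value of -0.14 ± 0.06 in the knockout (adjusted p = 0.0620). The latter was called lower under 4 alternatives, among them without replicate 1 of sgControl in DMSO (-0.14, adjusted p = 0.0434) and with the treated knockout replicate 2 left out (-0.20, adjusted p = 0.0123). *E2F5* had values of 0.11 ± 0.09 (adjusted p = 0.320) and 0.26 ± 0.10 (adjusted p = 0.0327), the latter not called in 8 of 19 alternatives. Neither *E2F4* nor *E2F5* passed the test for a difference between the responses (adjusted p of 0.532 and 0.429). In DMSO *E2F5* was lower in the knockout by -0.35 ± 0.10 (adjusted p = 0.00149), and *E2F4* differed by -0.10 ± 0.06 (adjusted p = 0.191). The histone deacetylase gene *HDAC1* and the *RBBP4* paralogue *RBBP7* fell by 0.54 ± 0.04 and 0.58 ± 0.04 in control cells (adjusted p of 8.22e-37 and 4.83e-41) and had values of -0.05 and -0.04 in the knockout. *SIN3B*, a corepressor scaffold, rose by 0.26 ± 0.08 in control cells (adjusted p = 0.00173), and with total counts as size factors the value was 0.125 and not called (adjusted p = 0.317). *DYRK1A*, the kinase that assembles DREAM, had values of 0.07 ± 0.11 and 0.22 ± 0.11 and passed in neither genotype (adjusted p of 0.683 and 0.140), although the value in the knockout was called without replicate 1 of sgControl in DMSO (0.22, adjusted p = 0.0350) and in a fit to the 6 samples compared (0.21, adjusted p = 0.0130).

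The DP genes *TFDP1* and *TFDP2* moved oppositely. *TFDP1* fell by 0.81 ± 0.04 on the log2 scale in control cells (adjusted p = 5.20e-80) and *TFDP2* rose by 0.52 ± 0.10 (adjusted p = 3.69e-06), and neither passed in the knockout (0.07 and -0.21, adjusted p of 0.263 and 0.116). In DMSO *TFDP1* was lower in the knockout by -0.63 ± 0.04 (adjusted p = 6.22e-47) and *TFDP2* was higher by 0.68 ± 0.11 (adjusted p = 2.62e-09). *TFDP1* (113584721 to 113641473) lies on chromosome 13 with *RB1*, and the 96 genes between them that averaged 100 normalized counts or more had a median of -0.69 on the log2 scale in the same comparison, with 89 below 0. In abemaciclib that median was -0.46, with 66 below 0, while *TFDP1* was higher in the knockout by 0.25 ± 0.04 (adjusted p = 2.11e-08). The part of this stretch of chromosome in the values of *TFDP1* and *RB1* was not tested.

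The relatives of *MYBL2* did not follow it. *MYB* rose by 0.51 ± 0.06 and *MYBL1* by 0.39 ± 0.11 on the log2 scale in control cells with abemaciclib (adjusted p of 1.31e-14 and 0.00183), where *MYBL2* fell. With total counts as size factors the rise of *MYBL1* was 0.249 and not called (adjusted p = 0.134). In the knockout they had values of -0.10 ± 0.07 and 0.16 ± 0.12 (adjusted p of 0.261 and 0.348). Both were lower in the knockout than in the control, by -0.40 ± 0.07 and -0.77 ± 0.12 in DMSO and by -1.02 ± 0.07 and -1.002 ± 0.117 in abemaciclib (adjusted p of 2.21e-08, 1.06e-09, 2.19e-52 and 5.19e-17). For *MYBL1* the responses of the genotypes were not shown to differ (-0.23 ± 0.17, adjusted p = 0.286), but the difference was called without replicate 3 of sgControl in DMSO (-0.35, adjusted p = 0.0429).

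Among 9 kinase and cyclin genes that act on pocket proteins, 8 were tested and *CCND2* had no count. In control cells 1 rose and 6 fell with abemaciclib, beside 24.1% of all genes tested called higher and 23.9% lower. In the knockout 3 rose and 1 fell, beside 15.0% and 15.1%. Nothing is read from either count of 1. *CCND1*, the cyclin partner of CDK4, rose by 1.18 ± 0.05 on the log2 scale in control cells (adjusted p = 3.65e-105) and had a value of -0.06 ± 0.05 in the knockout (adjusted p = 0.475). *CCNE2*, a cyclin partner of CDK2, fell by 6.13 ± 0.20 in control cells (adjusted p = 9.41e-196), and *CDK6* was higher in the knockout than in the control in DMSO by 1.37 ± 0.19 (adjusted p = 2.77e-11). The size of the fall of *CCNE2* rests on 17.6 to 18.6 normalized counts in treated control libraries. In the knockout *CDK4* and *CCNE1* rose by 0.39 ± 0.08 and 0.30 ± 0.07 with abemaciclib (adjusted p of 4.53e-06 and 2.90e-05), and in DMSO *CCNE1* was higher in the knockout than in the control by 0.56 ± 0.07 (adjusted p = 9.20e-16).

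Known target genes of E2F and of MuvB gave the wider setting of the members. These lists were chosen with earlier results of these data known, so counts over them are a description and no independent support. All 20 G1/S targets of E2F and all 20 G2/M targets of MuvB fell with abemaciclib in control cells, with medians of -1.94 and -2.66 on the log2 scale against 0.01 over all genes tested. Of all genes tested, 23.9% were called lower in that comparison. In the knockout 13 of the G1/S targets fell and none rose, with a median of -0.27, and 7 of the G2/M targets fell and 2 rose, with a median of -0.08. Of all genes tested, 15.0% were called higher and 15.1% lower in the knockout, so nothing is read from the 2 that rose. The difference between the responses was above 0 and called for all 40 targets, beside 21.0% of all genes tested. In DMSO the knockout had 7 G1/S targets higher and 4 lower, and 1 G2/M target higher and 11 lower, with medians of 0.01 and -0.18. Of all genes tested, 16.2% were called higher and 15.2% lower in the knockout in DMSO. Nothing is read from the 4 G1/S targets that were lower or the 1 G2/M target that was higher. The largest fall among these genes in control cells was that of *RRM2*, a subunit of ribonucleotide reductase, which fell by 8.21 ± 0.14, and in the knockout it fell by 0.66 ± 0.05. The thymidine kinase gene *TK1* fell most in the knockout, by 0.72 ± 0.08 (adjusted p = 1.62e-16). In DMSO the mitotic kinase gene *CDK1* and the cytokinesis gene *ECT2* were lower in the knockout by -0.60 ± 0.06 and -0.50 ± 0.07 (adjusted p of 1.27e-24 and 2.22e-10). In abemaciclib all 40 targets were higher in the knockout than in the control, as were *RBL1*, *MYBL2* and *FOXM1*, beside 27.5% of all genes tested. Among the targets, kinases and cyclins together, the widest gaps between the genotypes there were those of *RRM2* and *CCNE2*, higher in the knockout by 7.16 ± 0.14 and 6.56 ± 0.20, while *CCND1* was lower by -1.44 ± 0.05 (adjusted p = 1.19e-154). In treated control cells *RRM2* had 30.8 to 42.0 normalized counts and *CCNE2* 17.6 to 18.6. The sizes of their gaps and of their falls in control cells therefore rest on few counts.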

How the data were processed

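RNA sequencing libraries of ZR-75-1 cells were deposited as 1 table with 12 sample columns. Its values are raw counts of reads per gene. Per the labels and the study's methods, the authors trimmed reads, aligned them to hg38 with STAR 2.7.5b and counted them with featureCounts 2.0.1 on a GENCODE annotation, with rows named by symbol. Strand and multiple mapping settings are not stated. The labels name a directional whole-transcript kit and the general methods a 3′ kit. With 3′ libraries, counts do not scale with transcript length, and the values per kilobase would not hold.

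Groups came from the sample titles. The 44 rows named NA held 0% of counts and were left out. DESeq2 1.42.0 in R 4.3.3 was fitted to all 12 samples with a term for group and median-of-ratios size factors. Each of 5 contrasts was tested by a two-sided Wald test, with Benjamini-Hochberg adjustment over all genes left by independent filtering, and a gene was called under 0.05. P-values measure the spread between the replicates as labelled, and nothing says that these are separate clones. Lengths, positions and overlaps are from GENCODE v44 on GRCh38. The members and lists were chosen with earlier results of these data known. Named beside the members were all genes of the partner and MYB lists, up to 2 called genes with the largest rise and up to 2 with the largest fall per contrast among kinases and targets, and 3 genes most like *RBL1*, *RBL2*, *MYBL2* and *FOXM1*. Alternatives were edgeR 4.0.16 (quasi-likelihood), TMM or total-count factors, a filter of 10 counts in 3 samples, no independent filtering, a replicate block, the 6 samples compared and leaving out each sample.

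Same-numbered samples deviated together between genotypes in abemaciclib (correlations of 0.15, 0.26 and 0.11 over 11885 genes), but not in every pair of the other contrasts. The labels do not say what a number shares.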

Additional observations from a re-analysis of the deposited data

Results flagged for a closer look

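The response to abemaciclib differed between *RB1*-knockout and sgControl cells, by the DESeq2 test of the difference itself, for 9 of the 10 members. The difference was above 0 for 7 and below 0 for 2. Of 21008 genes tested, 21.0% were called above 0 and 20.2% below 0. The count of 2 is near that background, so nothing is read from it. Among the 7 is *RB1*, the gene that was knocked out. On the log2 scale, knockout minus control, the difference was 2.48 for *FOXM1*, 2.07 for *RBL1*, 1.38 for *MYBL2*, 1.15 for *RB1*, 0.65 for *LIN52*, 0.60 for *RBBP4* and 0.48 for *LIN9*. It was -0.90 for *LIN37* and -0.40 for *RBL2*. The value of *RB1* rests on 29 to 63 raw counts in the knockout libraries, and that of *RBL2* was lost under 3 of 18 alternatives.

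Among the partners and relatives the difference was called for *TFDP1* (0.88), *RBBP7* (0.54), *HDAC1* (0.49), *TFDP2* (-0.73), *MYB* (-0.61) and *SIN3B* (-0.34). With total counts as size factors the difference of *SIN3B* was -0.201 and not called (adjusted p = 0.267). Among the kinases, cyclins and targets named above it was called for *RRM2* (7.56), *CCNE2* (6.27), *CDK1* (3.80), *TK1* (1.43), *CCNE1* (1.26), *CDK6* (1.21), *ECT2* (0.93), *CDK4* (0.51) and *CCND1* (-1.24). The values of *RRM2* and *CCNE2* rest on few counts in treated control cells. The value of *CDK6* had an adjusted p of 1.09e-04, that of *SIN3B* 0.00549 and that of *TFDP2* 5.39e-06. What the differences rest on was not tested.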

How the results depend on the processing

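Of 940 values of the members recomputed under another setting, 903 kept their direction and their side of the threshold. These settings were 7 other ways of analysis and the 12 fits that each left out a sample. Calls of members that were lost or gained are given with the results above. The counts of all genes called stayed within 1.5 times under each of them. With the replicate block the log2 fold change of *RBL1* between genotypes in abemaciclib was 2.02 (adjusted p = 1.30e-71) and that of *RBL2* was -0.51 (adjusted p = 3.95e-08). The replicate block changed no call of a member, and among the other named genes it ended only the call of *E2F5* in the knockout (0.257, adjusted p = 0.0597). Same-numbered samples correlated at 0.25, 0.22 and -0.08 for the response in sgControl, at -0.02, -0.07 and 0.02 in the knockout and at -0.25, -0.01 and 0.08 between genotypes in DMSO.

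Total counts as size factors moved the median gene by -0.133 in the sgControl response, 0.137 in the difference of the responses and 0.114 between genotypes in abemaciclib. The split of calls then went from 50.2% to 40.1% higher in the sgControl response and from 51% to 63.8% above 0 in the difference of the responses. With these factors 1 member was called higher in the sgControl response and 1 member had a called difference below 0. They turned the sign of values that were not called: *LIN54* (-0.132), *E2F5* (-0.018) and *DYRK1A* (-0.071) in the sgControl response, *LIN54* in the difference of the responses (0.114), and *LIN9* (0.082), *E2F4* (0.086) and *TFDP2* (0.063) between genotypes in abemaciclib. The sign of *LIN54* in the sgControl response also turned with edgeR (-0.002), TMM factors (-0.028) and the 6 samples compared (-0.016), and that of *RBL2* in the knockout with TMM factors (-0.003). With total counts *SIN3B* was not called between genotypes in abemaciclib (-0.152, adjusted p = 0.205). The cause was not tested.

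Leaving out a sample, the members called lower in the knockout response ranged from 1 to 3, with 1 left without replicate 2 of the knockout in DMSO. The members with a called difference below 0 ranged from 1 to 2, with 1 left without replicate 2 of sgControl or replicate 1 of the knockout in abemaciclib. Between genotypes in DMSO the value ranged from -0.181 to 0.051 for *RBL1*, from -0.227 to 0.012 for *RBL2*, from -0.023 to 0.190 for *LIN37*, from -0.001 to 0.046 for *RBBP7* and from -0.039 to 0.002 for *HDAC1*. In the sgControl response it ranged from -0.075 to 0.132 for *LIN54* and from -0.038 to 0.171 for *DYRK1A*, and in the knockout response from -0.026 to 0.071 for *RBL2*, from -0.078 to 0.027 for *LIN52* and from -0.148 to 0.087 for *CDK6*. The difference of the responses of *LIN54* ranged from -0.152 to 0.054. Between genotypes in abemaciclib *LIN9* ranged from -0.096 to 0.033 and *TFDP2* from -0.095 to 0.025. At 29 to 63 counts per knockout library for *RB1* and 76 to 225 per library for *LIN37*, smaller differences of these genes were not detectable.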
